A study of Mus musculus with 8 samples.

Results

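The genes of central carbon metabolism were followed in Neuro2A cells treated with the cannabinoid receptor agonist HU210. The list held 45 genes chosen by name from 3 pathways, 19 of glycolysis and lactate production, 5 of the pentose phosphate pathway and 21 of pyruvate entry and the tricarboxylic acid (TCA) cycle. Of these, 44 were found among the 16974 genes of the deposited expression table, and PC (pyruvate carboxylase) was not analysed here. Gene symbols are written in capitals, as in that table. Neuro2A is a mouse neuroblastoma line that extends neurites when its cannabinoid receptor 1 is activated. All cells were starved in serum-free medium and then received 2 µM HU210 dissolved in DMSO, or DMSO alone, for 2, 4, 6 or 8 h. Each of the 8 mRNA libraries is the only one of its treatment and time, and its RNA was pooled from independent experiments, so the spread between experiments at 1 time point was not measured.

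Glycolysis splits glucose into pyruvate in the cytosol, which lactate dehydrogenase can turn into lactate. The pentose phosphate pathway branches off at glucose 6-phosphate and yields NADPH and ribose phosphate. Pyruvate that enters the mitochondrion is made into acetyl-CoA by the pyruvate dehydrogenase complex and oxidised in the TCA cycle. Proliferating tumour cells often send much of their pyruvate to lactate, and several steps exist as pairs of isoforms, one typical of neurons or astrocytes and one of most other cells.

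The libraries carried the markers of a sympathetic neuroblastoma. Of 16 such genes 15 were listed, 9 of them with a mean of at least 10 FPKM (a level that is corrected for transcript length and for the size of the library), among them STMN2, HAND2 and CHGA. TH and DBH, the enzymes of catecholamine synthesis, stood near 2.00 and 1.14 FPKM, and the neurofilament genes NEFL and NEFM were at or near 0. Of 12 markers of glia, leukocytes, fibroblasts, endothelium and epithelium, 8 were listed, and their summed level stayed between 7.34 and 9.05 FPKM over the 8 libraries. MBP was between 3.59 and 5.10 FPKM, while GFAP, CD68 and COL1A1 stayed under 1 FPKM. The libraries differed in how often they held extreme values, among the 11311 genes listed at all times with a mean of at least 1 FPKM. The 4 h DMSO library held the highest of the 8 values in 27.3% and the lowest in 18.3%. The 4 h HU210 library held the highest in 12.4% and the lowest in 20.5%. Each of the other libraries held the highest in 6.04% to 14.4% and the lowest in 5.07% to 17.2%.

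Glycolytic genes were among the most abundant mRNAs of the list. LDHA, the lactate dehydrogenase subunit that favours lactate formation, had the highest level, with 504 ± 7.10 FPKM (SD, n = 4 time points) with HU210 and 506 ± 32.3 with DMSO. ALDOA, an aldolase, followed with 462 ± 16.2 and 442 ± 41.0 FPKM, and PKM, the pyruvate kinase of tumour and brain cells, with 395 ± 26.0 and 373 ± 43.9 FPKM. For each of these genes the treatments differed by less than the larger spread over the time points. In such bulk libraries, fewer cells of a kind and less mRNA per cell cannot be told apart. LDHB, the other lactate dehydrogenase subunit, did not exceed 0.0150 FPKM in the 6 libraries that listed it.

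Where the list holds alternative genes for 1 step, a single one usually made up most of their summed FPKM. ALDOA held a mean of 98.3% of its sum with ALDOC, ENO1 94.2% of the sum of ENO1 and ENO2 (the neuronal form) and PFKP, the platelet form, 60.4% of the 3 phosphofructokinases. SLC2A3, the neuronal glucose transporter, held 74.6% of its sum with SLC2A1, against 25.4% for SLC2A1. The shares of the hexokinases HK1 and HK2 in their sum were more even, at 54.7% and 45.3%. The share of PFKP ranged from 56.5% to 68.1% and was highest in the 4 h DMSO library, where the shares of PFKL (19.8%), PFKM (12.2%), SLC2A1 (22.0%), HK2 (40.8%) and ENO2 (5.03%) were at their lowest.

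Of the 5 pentose phosphate genes of the list, TKT (transketolase) and PGD (6-phosphogluconate dehydrogenase) had the highest levels, with 114 ± 4.22 and 107 ± 6.30 FPKM (SD, n = 4) with HU210, against 111 ± 4.81 and 106 ± 5.78 FPKM with DMSO. TALDO1 (transaldolase) followed at 65.6 ± 1.70 and 66.3 ± 4.82 FPKM, and RPIA, the ribose-phosphate isomerase, was the lowest of the 5 at 16.8 ± 1.81 and 17.1 ± 0.997 FPKM. TKT was the steadiest gene of the list, with a highest value only 1.12 times its lowest.

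Of the 20 pyruvate entry and TCA genes listed, MDH2, the mitochondrial malate dehydrogenase, had the highest mean, with 226 ± 21.5 FPKM with HU210 and 220 ± 12.9 FPKM with DMSO. CS (citrate synthase) had 178 ± 7.99 and 185 ± 12.8 FPKM, and MDH1, the cytosolic malate dehydrogenase, 125 ± 1.75 and 129 ± 15.5 FPKM. SUCLA2, the ATP-forming succinate-CoA ligase subunit, held a mean of 71.2% of the 2 beta subunits and SUCLG2, the GTP-forming one, 28.8%. PDK1, the kinase that inhibits pyruvate dehydrogenase, was barely present, between 0.894 and 1.75 FPKM. Over the 43 members listed at all times, the ratio of the highest to the lowest of the 8 values had a median of 1.28, beside 1.40 over all genes of that filter and 1.36 over those with a mean of at least 10 FPKM.

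**Figure D1:**
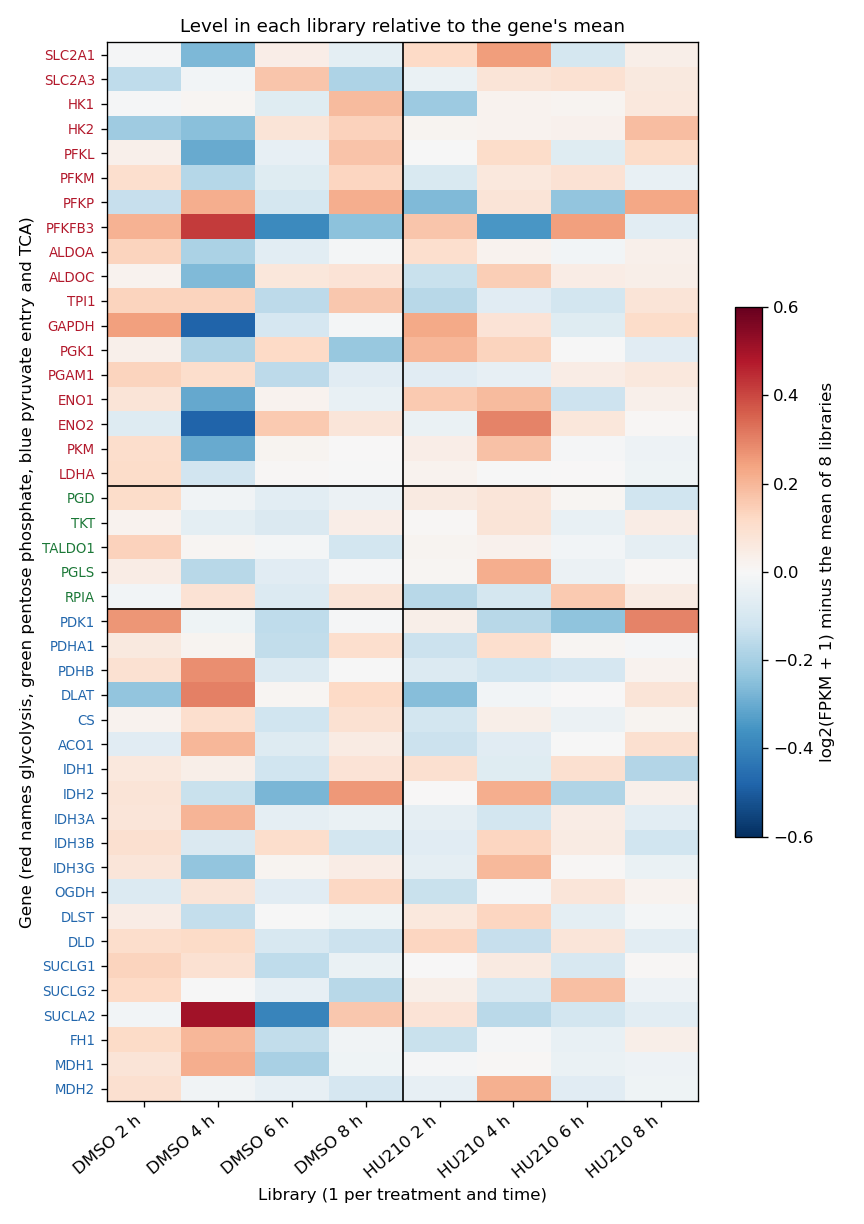
Each row is 1 of the 43 genes listed at all 4 times and each column 1 library, and the colour gives log2(FPKM + 1) minus the mean of the gene's 8 libraries. The 4 h DMSO column is blue for most glycolytic genes and red for several TCA genes, with GAPDH and ENO2 lowest and SUCLA2 and PFKFB3 highest there.

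The first comparison asked whether any of these genes differed between HU210 and DMSO over the whole time course. No member passed the test. With limma on log2(FPKM + 1) and the time point as a block, 0 of 43 members and 0% of 11311 genes had an adjusted p of 0.05 or less, and at an unadjusted p under 0.05 there were 0 members and 148 genes (1.31%). The mean log2 difference of GAPDH (HU210 minus DMSO) was 0.17 ± 0.12 (SE), with HU210 higher in 3 of 4 pairs, and that of TPI1, triose phosphate isomerase, was −0.13 ± 0.09, with HU210 lower in 3 of 4 pairs, each with an adjusted p of 1 by limma, rounded.

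The size of the difference varied with time, and it was at 4 h that the members spread out. A member was counted as higher or lower when HU210 and DMSO differed by at least 1.3-fold in FPKM + 1, which has no replicate check. At 2 h no member of 44 passed in either direction, beside 1.61% of all genes listed higher and 3.3% lower, and 33 members were on the lower side of 0, as were 63.9% of all genes with a mean of at least 1 FPKM in the pair. With all 4 DMSO libraries averaged as reference, 23 of 43 members were above 0 at 2 h and 20 below. At 4 h, 9 members were higher and 3 lower, beside 6.61% of all genes higher and 14.5% lower. Among genes with a mean of at least 1 FPKM in the pair these shares were 8.97% and 20%. At 6 h 1 of 43 members was higher and 0 lower, beside 5.14% and 1.81%, and at 8 h 0 of 44 were higher and 0 lower, beside 3.72% and 1.48%.

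**Figure D2:**
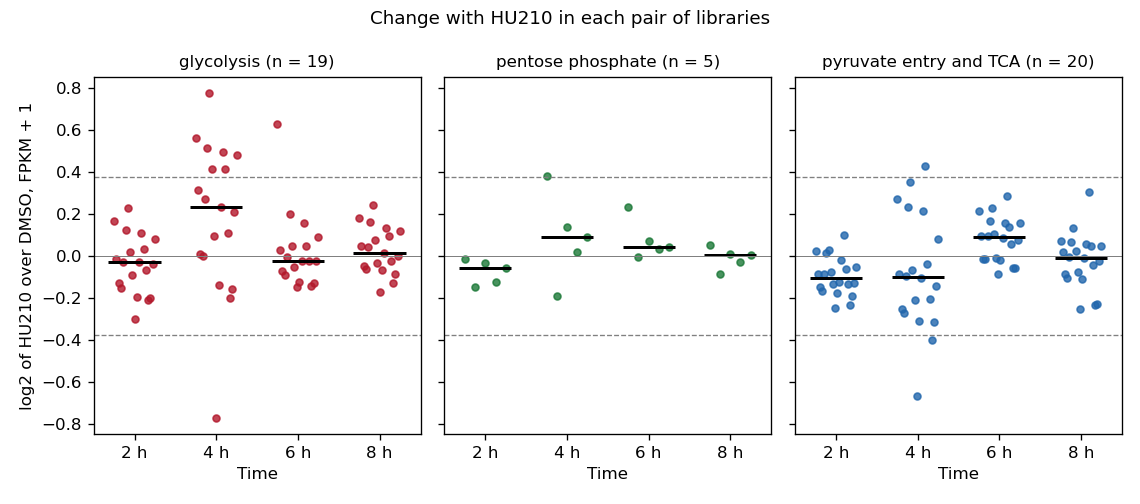
Each point is 1 gene, the vertical axis is the log2 of HU210 over DMSO in FPKM + 1 at each time, black bars are medians and dashed lines mark 1.3-fold. Glycolytic genes sit mostly above 0 at 4 h, with PFKFB3 as the lone point below the lower line and, at 6 h, above the upper one.

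The counts at 4 h were taken for each of the 3 pathways. Over all genes listed, 6.61% were at least 1.3-fold higher with HU210 and 14.5% lower. These shares were 8.97% and 20% among genes with a mean of at least 1 FPKM in the pair. In glycolysis 7 of 19 genes of the list were higher and 1 lower, and the median log2 difference was 0.23. Of 26 glycolytic genes outside the list, 2 were higher and 5 lower. Among the 16 of these with a mean of at least 1 FPKM in the pair, 0 were higher and 4 lower. In the pentose phosphate pathway 1 of 5 was higher and 0 lower, with a median of 0.09, and among the pyruvate entry and TCA genes 1 of 20 was higher and 2 lower, with a median of −0.10. The median of all genes listed was −0.01 at 4 h, and −0.08 among those with a mean of at least 1 FPKM in the pair. Whether the pathways differ from each other was not tested, since the genes of 1 pair of libraries are not replicates.

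The glycolytic median stayed near 0 at the other times. At 2 h they were −0.03 for glycolysis, −0.05 for the pentose phosphate pathway and −0.10 for the TCA genes, with a median of −0.05 over genes with a mean of at least 1 FPKM in the pair. At 6 h they were −0.02, 0.04 and 0.09 beside 0.06, and at 8 h 0.01, 0.00 and −0.01 beside 0.04. Of the TCA genes 16 of 20 were below 0 at 2 h, beside 63.9% of genes with a mean of at least 1 FPKM in the pair, and 13 of 20 above 0 at 6 h, beside 65.5%. The direction of the TCA genes at 6 h was not kept in 2 other settings. With the mean of the 4 DMSO libraries as reference, 7 of 20 were above 0 and the median was −0.04. With a trend on base composition removed, it was 9 of 20 and −0.01. Among genes with a mean of at least 1 FPKM in the pair, 61.5% and 47.9% were above 0 in these settings.

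The 5 members with the largest difference at 4 h were ENO2, PFKFB3, SUCLA2, GAPDH and SLC2A1. The sequences before their transcription starts are given here because hypoxia-inducible and E-box factors are known regulators of glycolytic genes. Shown are the 150 bases before the start in RefSeq on GRCm38.p6, a later build than the mm9 of the expression table. PFKFB3 has 2 starts there. Capitals mark ACGTG and GCGTG, the core of the hypoxia response element, and the E-box CACGTG, which holds ACGTG, on either strand, so that CACGT and CACGC are the same cores read from the other strand.
ENO2, chr6:124769674-124769823, minus strand: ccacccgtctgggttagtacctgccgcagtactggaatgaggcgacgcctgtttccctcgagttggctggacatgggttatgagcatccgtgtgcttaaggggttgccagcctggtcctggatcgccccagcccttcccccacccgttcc
PFKFB3, upstream start, chr2:11553930-11554079, minus strand: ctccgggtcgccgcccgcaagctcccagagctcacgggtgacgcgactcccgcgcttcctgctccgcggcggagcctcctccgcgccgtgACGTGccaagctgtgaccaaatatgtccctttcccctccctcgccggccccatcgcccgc
PFKFB3, downstream start, chr2:11502091-11502240, minus strand: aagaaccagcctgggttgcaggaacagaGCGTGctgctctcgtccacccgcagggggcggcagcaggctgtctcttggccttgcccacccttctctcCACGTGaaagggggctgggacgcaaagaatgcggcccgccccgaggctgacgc
SUCLA2, chr14:73552636-73552785, plus strand: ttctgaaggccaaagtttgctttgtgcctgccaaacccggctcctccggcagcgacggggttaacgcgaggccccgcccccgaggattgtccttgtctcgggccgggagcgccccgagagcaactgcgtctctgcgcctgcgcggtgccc
GAPDH, chr6:125165774-125165923, minus strand: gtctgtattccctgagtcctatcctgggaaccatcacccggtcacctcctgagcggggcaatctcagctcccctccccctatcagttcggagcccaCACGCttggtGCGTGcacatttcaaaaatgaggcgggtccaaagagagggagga
SLC2A1, chr4:119108595-119108744, plus strand: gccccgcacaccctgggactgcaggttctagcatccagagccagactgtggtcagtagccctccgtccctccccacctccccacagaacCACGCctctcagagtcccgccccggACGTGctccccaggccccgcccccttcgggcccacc

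Over the 250 bases before the start, SLC2A1 held ACGTG with its first base at −36 and GCGTG at −61 from the start, and GAPDH held GCGTG at −54 and −44. The upstream start of PFKFB3 had ACGTG at −60, and the downstream one CACGTG at −53 and GCGTG at −122. ENO2 and SUCLA2, which went in opposite directions at 4 h, had none of the 3 motifs in this window. RefSeq windows were found for 42 members, of which 13 held ACGTG, 27 GCGTG and 4 CACGTG in at least 1 window. By window, ACGTG was in 33.9% of the 62 member windows and 16.6% of all 32851, GCGTG in 54.8% and 28.2%, and CACGTG in 9.68% and 6.02%. By pathway, ACGTG was found in 9 of 18 glycolytic genes, 0 of 5 pentose phosphate genes and 4 of 19 TCA genes. The share of all genes with a match was not computed, so the counts of genes have no background of like kind. Whether members held more matches than other genes of like level or base composition was not tested. These are matches of letters, and binding was not measured.

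ENO2, the neuronal enolase (mm9 chr6:124710071-124719691, minus strand), showed the largest difference. In the order 2, 4, 6 and 8 h, its FPKM with HU210 was 14.6, 18.7, 15.8 and 15.1, and with DMSO 14.2, 10.5, 16.9 and 15.9. The 4 h libraries were the highest and the lowest of the 8, and the other 6 lay between 14.2 and 16.9. The log2 difference at 4 h was 0.78. ENO1, the enolase of most tissues, had 274, 280, 225 and 251 FPKM with HU210 and 259, 198, 250 and 238 with DMSO, a log2 difference of 0.50 at 4 h. Its 4 h libraries were also the highest and the lowest of the 8.

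GAPDH, glyceraldehyde 3-phosphate dehydrogenase (mm9 chr6:125111871-125116485, minus strand), had 111, 100, 89.8 and 102 FPKM with HU210 and 112, 67.4, 88.1 and 93.8 with DMSO at 2, 4, 6 and 8 h. The DMSO value at 4 h stood below the other 7, and the HU210 value at 4 h was within their range. The log2 difference at 4 h was 0.56. The table also lists 39 rows described as pseudogenes of GAPDH, whose summed level was between 121 and 161 FPKM, so reads could be shared among these rows. Summed with them, the difference at 4 h was 0.35, under 1.3-fold.

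SLC2A1, the ubiquitous glucose transporter (mm9 chr4:118781316-118809935, plus strand), had 21.2, 23.3, 18.0 and 20.0 FPKM with HU210 and 19.3, 16.0, 20.0 and 18.6 with DMSO. Both 4 h libraries were again the extremes, with a log2 difference of 0.52. SLC2A3 differed little at that time, with 60.5 FPKM against 56.6 and a log2 difference of 0.09.

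PKM had 393, 433, 381 and 375 FPKM with HU210 and 411, 310, 387 and 384 with DMSO, a log2 difference of 0.48 at 4 h. PFKL, the liver form of phosphofructokinase, had 54.7, 59.3, 52.0 and 59.2 FPKM with HU210 and 55.9, 44.2, 52.9 and 61.8 with DMSO, a difference of 0.41. ALDOC, the brain aldolase, had 6.94, 8.65, 7.96 and 7.92 FPKM with HU210 and 7.83, 6.24, 8.11 and 8.22 with DMSO, a difference of 0.42. In all 3 the 4 h DMSO library was the lowest of the 8. In PKM and ALDOC the 4 h HU210 library was also the highest.

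The other glycolytic genes apart from PFKFB3 differed by less than 1.3-fold at 4 h. LDHA had 503 FPKM with HU210 and 467 with DMSO at 4 h, a log2 difference of 0.11, and ALDOA 457 and 395, a difference of 0.21. PGK1 (phosphoglycerate kinase) was at 91.0 and 73.1 FPKM, a difference of 0.31, and HK2 at 46.4 and 38.2, a difference of 0.27. HK1 was almost equal, at 55.8 and 55.5 FPKM. PFKP, TPI1 and PGAM1 (phosphoglycerate mutase) were lower with HU210, by log2 differences of −0.14, −0.20 and −0.16.

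PFKFB3, the kinase that makes fructose 2,6-bisphosphate, the activator of phosphofructokinase, was the only glycolytic member at least 1.3-fold lower with HU210 at 4 h (mm9 chr2:11393057-11423728, minus strand). Its FPKM was 19.0, 13.0, 20.1 and 16.0 with HU210 and 19.5, 22.8, 12.7 and 14.0 with DMSO at 2, 4, 6 and 8 h. HU210 was lower at 4 h, by a log2 difference of −0.77, and higher at 6 h, by 0.63. The 4 h DMSO library was the highest of the 8 and the 6 h DMSO library the lowest. The related kinases PFKFB1, PFKFB2 and PFKFB4 were at 2.94, 2.27 and 2.62 FPKM with HU210 at 4 h against 4.42, 2.95 and 4.83 with DMSO. At 6 h they were at 3.46, 3.54 and 2.88 FPKM against 3.57, 2.45 and 3.99. PFKFB2 was then higher with HU210 (log2 difference 0.39), PFKFB4 lower by less than 1.3-fold (−0.36) and PFKFB1 almost equal (−0.04).

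**Figure D3:**
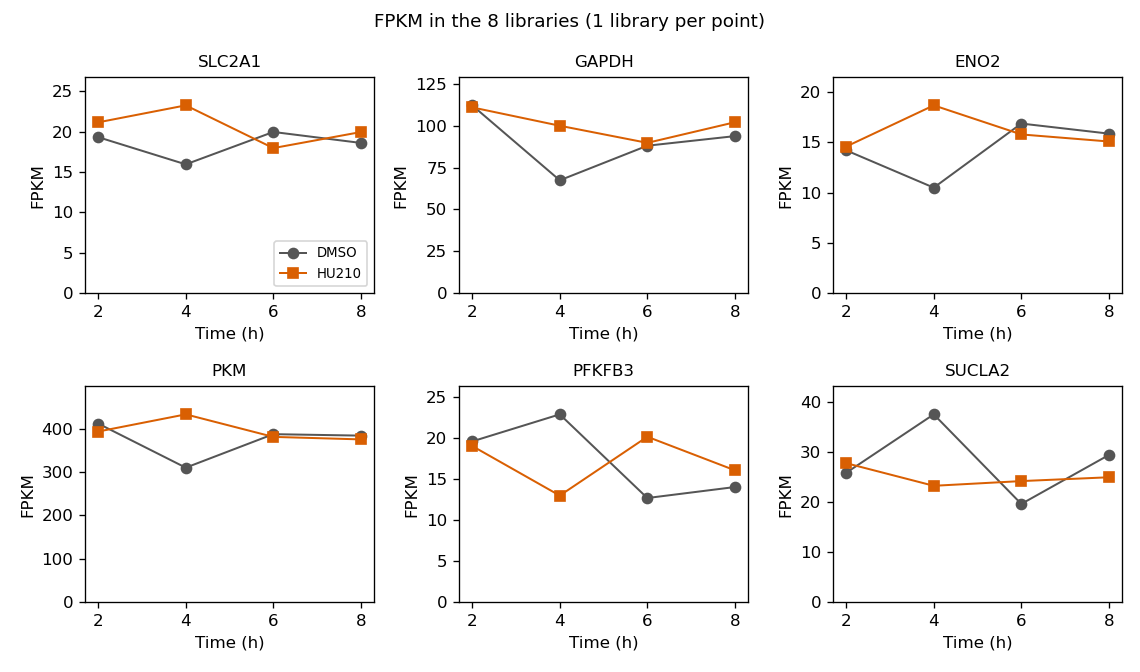
FPKM (vertical axes, from 0) against time in h for 6 genes, with DMSO as grey circles and HU210 as orange squares, 1 library per point. The 4 h DMSO point dips in SLC2A1, GAPDH, ENO2 and PKM and peaks in PFKFB3 and SUCLA2, while HU210 varied less in SUCLA2, from 23.3 to 27.8 FPKM.

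Of the pentose phosphate genes PGLS, 6-phosphogluconolactonase, alone passed 1.3-fold. It had 50.1, 57.9, 48.5 and 49.9 FPKM with HU210 and 51.3, 44.2, 47.4 and 49.5 with DMSO, and its log2 difference at 4 h was 0.38, beside the limit of 0.38 itself. RPIA was at 15.6 FPKM with HU210 and 18.0 with DMSO at 4 h, a log2 difference of −0.19, and at 18.9 and 15.9 at 6 h, a difference of 0.24. PGD, TKT and TALDO1 did not exceed a log2 difference of 0.14 in size at any time.

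Among the 20 pyruvate entry and TCA genes of the list SUCLA2 had the largest difference (mm9 chr14:73925126-73995949, plus strand). It had 27.8, 23.3, 24.2 and 25.0 FPKM with HU210 and 25.9, 37.5, 19.6 and 29.4 with DMSO. Its log2 difference was −0.67 at 4 h and 0.29 at 6 h, and the highest and the lowest of the 8 values were both in DMSO. SUCLG2 was at 9.76 and 10.5 FPKM at 4 h, a difference of −0.09, and SUCLG1, the subunit both ligases share, at 105 and 108 FPKM, a difference of −0.04.

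The subunits of the pyruvate dehydrogenase complex stood on both sides of 0 at 4 h. PDHB had 31.1, 30.2, 30.6 and 33.4 FPKM with HU210 and 35.2, 40.2, 31.0 and 32.8 with DMSO, a log2 difference of −0.40 at 4 h, and DLAT was at 42.9 against 53.7, a difference of −0.32. PDHA1, the partner of PDHB in the same enzyme, was at 132 against 124 FPKM, a difference of 0.08. DLD, which 2-oxoglutarate dehydrogenase also uses, was at 56.2 against 67.2, a difference of −0.25.

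The 3 subunits of the NAD-dependent isocitrate dehydrogenase split as well. IDH3G had 116, 138, 121 and 117 FPKM with HU210 and 127, 102, 122 and 124 with DMSO, a log2 difference of 0.43 at 4 h. IDH3B was at 129 against 111 FPKM at 4 h, a difference of 0.21, and IDH3A, the catalytic subunit, at 69.2 against 86.1, a difference of −0.31. Of the NADP-dependent enzymes, mitochondrial IDH2 was higher with HU210 at 4 h (87.0 against 68.0 FPKM, 0.35) and cytosolic IDH1 lower (57.5 against 62.0, −0.11). MDH2 and MDH1 likewise stood on either side of 0, with 0.23 and −0.21.

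Both libraries of 4 h held extreme values of many members. Of the 43 members, the 4 h DMSO library was the lowest of the 8 in 14, including SLC2A1, HK2, PFKL, GAPDH, ENO1, ENO2 and PKM. It was the highest in 9, including PFKFB3, SUCLA2, PDHB and DLAT. Over all genes it was the lowest in 18.3% and the highest in 27.3%. The 4 h HU210 library was the highest in 12 members, including SLC2A1, ENO1, ENO2 and PKM, and the lowest in 3. Over all genes it was the highest in 12.4% and the lowest in 20.5%. With the mean of the 4 DMSO libraries as the reference, 0 members were at least 1.3-fold higher at 4 h and 0 lower. Of all genes listed, 1.76% were higher and 4.47% lower in that setting. In that setting ENO2 had a log2 difference of 0.38, just under the limit, PFKFB3 −0.35, SLC2A1 0.32, SUCLA2 −0.23 and GAPDH 0.17. With the mean of the other 3 DMSO libraries, the log2 difference was 0.24 for ENO2, −0.21 for PFKFB3, 0.26 for SLC2A1, −0.08 for SUCLA2 and 0.04 for GAPDH. Again no member passed in either direction, beside 1.25% of all genes listed higher and 2.89% lower. These references use DMSO libraries of other times, which the comparisons then share.

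The difference at 4 h also moved with the base composition of the transcripts. Over the 43 members, Spearman's rho between the log2 difference at 4 h and the GC content of the longest annotated transcript was 0.70, beside 0.53 over 10589 genes, as a description over genes that share the same 2 libraries. At 2, 6 and 8 h it was 0.06, −0.32 and −0.08 for the members. The glycolytic genes had a median GC content of 54.1%, the pentose phosphate genes 54.0% and the TCA genes 47.4%, beside 50.5% over all genes. Within glycolysis the rho at 4 h was 0.50 (n = 18), and within the TCA genes 0.65 (n = 20). With a smooth trend on GC content and length over all genes removed from each pair, 6 members were higher at 4 h and 2 lower, beside 7.56% and 7.23% of all genes with a GC content. SLC2A1, ALDOC, GAPDH, ENO2, IDH3G, PFKFB3 and SUCLA2 stayed past 1.3-fold, PGK1 joined them, and PFKL, ENO1, PKM, PGLS and PDHB did not pass. The median of glycolysis was then 0.25 and that of the TCA genes 0.04. With all 4 DMSO libraries averaged as reference, the glycolytic median was 0.10, and against the other 3 it was 0.05. The part of base composition in the differences was not tested.

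**Figure D4:**
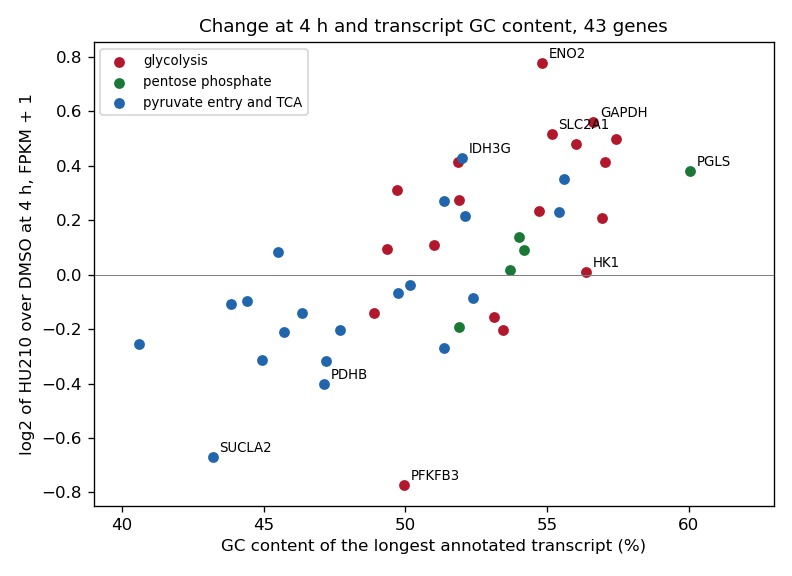
Each point is 1 of 43 genes, with the GC content of its longest annotated transcript in percent on the horizontal axis and its log2 of HU210 over DMSO at 4 h on the vertical axis, coloured by pathway. Points climb from lower left to upper right (rho 0.70), with PFKFB3 well below and ENO2 well above genes of like GC content.

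The other genes of the pathways, written as 3 further lists from the known enzymes, transporters and regulators, gave mixed directions at 4 h. Of 26 other glycolytic genes 2 were at least 1.3-fold higher and 5 lower, beside 6.61% and 14.5% of all genes listed. Of 8 other pentose phosphate genes it was 0 and 1, and of 22 other pyruvate and TCA genes 3 and 3. With a mean of at least 1 FPKM in the pair, the counts were 0 and 4 of 16, 0 and 1 of 6, and 3 and 3 of 21. Of all genes with that mean, 8.97% were higher and 20% lower. PRPS1, which makes phosphoribosyl pyrophosphate from ribose phosphate, had 53.1 FPKM with HU210 and 98.0 with DMSO at 4 h, a log2 difference of −0.87. MPC2, a subunit of the mitochondrial pyruvate carrier, had 15.4 against 22.8 FPKM at 2 h and 18.5 against 30.7 at 4 h, differences of −0.54 and −0.70. PCK2, the mitochondrial PEP carboxykinase, had 65.8 against 43.7 FPKM at 4 h, a difference of 0.58. At 2 h 0 of 56 were higher and 2 lower, beside 1.61% and 3.3% of all genes listed, at 6 h 3 of 55 higher and 1 lower, beside 5.14% and 1.81%, and at 8 h 0 of 56 higher and 1 lower, beside 3.72% and 1.48%.

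The second comparison asked whether the libraries of 6 and 8 h differed from those of 2 and 4 h whatever the treatment. By limma, with treatment as a covariate, 0 of 43 members and 0% of 11311 genes had an adjusted p of 0.05 or less, while at an unadjusted p under 0.05 there were 815 genes (7.21%) and 1 member. This was HK2, the inducible hexokinase, with 46.2, 46.4, 46.4 and 52.0 FPKM with HU210 and 39.2, 38.2, 48.2 and 50.3 with DMSO. The 4 late libraries all stood above the 4 early ones, the HU210 libraries of 4 and 6 h by very little. The mean log2 difference (late minus early) was 0.21 ± 0.08 (SE), with an unadjusted p of 0.0306 and an adjusted p of 0.66 by limma. HK2 was no longer under an unadjusted p of 0.05 without the 2 h libraries, without the 4 h or the 8 h libraries, or with each library centred on its median.

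The third comparison asked whether the HU210 difference itself was another at 6 and 8 h than at 2 and 4 h. The interaction in limma gave 0 of 43 members and 0% of all genes at an adjusted p of 0.05 or less, and 1786 genes (15.8%) and 2 members at an unadjusted p under 0.05. PFKFB3 had a mean HU210 difference of −0.41 early and 0.41 late, a log2 shift of 0.81 ± 0.26 (SE), with an unadjusted p of 0.0152 and an adjusted p of 0.22. PGAM1 had 99.9 and 101 FPKM with HU210 early against 115 and 113 with DMSO, and 108 and 109 late against 94.0 and 99.7. Its mean difference was −0.18 early and 0.17 late, a shift of 0.34 ± 0.14 with an adjusted p of 0.29. These unadjusted counts rested on single time points. There were 9 members and 3058 genes without 2 h, 0 and 772 without 4 h, 0 and 595 without 6 h, and 1 and 1130 without 8 h. The 9 were ALDOC, ENO1, ENO2, GAPDH, IDH3G, PDHB, PFKFB3, PKM and SLC2A1, all past 1.3-fold at 4 h.

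Near copies limit some levels of the list. Beside GAPDH, the table lists a row GPI-PS between 198 and 238 FPKM next to GPI1, glucose phosphate isomerase, between 153 and 192. G6PD2, a retrogene of glucose 6-phosphate dehydrogenase, lay between 11.2 and 18.4 FPKM beside 24.9 to 29.7 for G6PDX, the source gene. CSL, a copy of citrate synthase, lay between 31.6 and 48.3 FPKM and had a log2 difference of 0.58 at 4 h, while that of CS was −0.07. How reads were shared within these pairs was not tested.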

How the data were processed

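The authors mapped the reads to mm9 with TopHat2 2.0.8, Bowtie2 2.1.0 and SAMtools 0.1.7 and Ensembl gene models, and made FPKM values with Cufflinks, whose version is not given in the sources used here, with corrections for reads that map to several places and for fragment bias and with upper-quartile scaling. The deposited table holds FPKM + 1, from which 1 was subtracted. Its columns of the authors' own log2 changes, p-values, q-values and calls, and a second table of called genes, were not used. No column of per-sample values was set aside (0). No read count per gene was used, and the depth behind a value is therefore unknown. The 44 members were matched by symbol. Log2 differences were taken of FPKM + 1. limma 3.58.1 (R 4.3.3), with trend, was fitted over 11311 genes listed at all times with a mean of at least 1 FPKM, with Benjamini-Hochberg adjustment at 0.05. Time points stood in for replicates, so in the comparison of treatments the p-values measure the spread of the difference over times. The late and early comparison and the interaction had no time point block. In them the HU210 and DMSO libraries of the same hour were treated as independent, so their pairing was not used. Tested on simulated data of 11311 genes, limma recovered 29% of log2 changes of 0.5 and 75% of changes of 1 between treatments. It recovered 54% and 81% between late and early libraries, and 0% and 22% in the interaction. Among unchanged genes it called 5, 8 and 0. All simulated libraries had independent noise with the residual spread of the treatment fit, from which spread between times was removed. Recovery in the late and early comparison and in the interaction may therefore be overstated. GC content and gene positions came from GENCODE vM1 (mm9) and promoters from RefSeq GRCm38.p6. GC content was found for 93.6% of these genes. The genes with values in every library are those past 1.3-fold at a time with a mean of at least 1 FPKM in that pair, and, where space allowed, the most abundant of each pathway, and HK2 and PGAM1 were added after their values were seen. The members, lists and alternatives were chosen with earlier results of these data known. One alternative, the other 3 DMSO libraries as reference, was added after seeing the 4 h DMSO library. Pseudocount, filter, centring, fold limit, reference, base composition trend and left-out time points were varied.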

Additional observations from a re-analysis of the deposited data

Results flagged for a closer look

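Within the 4 libraries of a treatment, 86 sets of 4 FPKM values were examined for a value far from the other 3 by Dixon's test, which flags about 1 in 20 sets by chance, and 3 were found. The 8 h HU210 library had 52.0 FPKM of HK2 against 46.2 to 46.4 in the other 3 HU210 libraries. The 6 h DMSO library had 134 FPKM of TPI1 against 163 to 166 in the other 3 DMSO libraries. The 4 h HU210 library had 258 FPKM of MDH2 against 213 to 219 in the other 3 HU210 libraries. The 3 values lie in 3 libraries.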

How the results depend on the processing

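The count of members called by limma was 0 in all 3 comparisons under each alternative tried. Over all genes the interaction called 0, against 7 with no filter on FPKM and 0 to 1 when a time point was left out (1 without 6 h). Of the members past 1.3-fold at 4 h, 1 higher and 2 lower passed 1.5-fold, beside 2.16% and 6.46% of all genes listed. Against the mean of the 4 DMSO libraries or of the other 3, 0 higher and 0 lower passed. Of all genes listed, 1.76% higher and 4.47% lower passed against the 4, and 1.25% and 2.89% against the other 3. PFKFB3 at 6 h did not pass against either reference, leaving 0, beside 2.42% and 2.77% of all genes listed higher. At 2 h, 1 member was higher (GAPDH) and 1 lower (DLAT) against the other 3 DMSO libraries, beside 3.5% and 4.63% of all genes listed. At 8 h 1 was higher (PDK1) with a pseudocount of 0.1, beside 8.56% of all genes listed. The 13 differences past 1.3-fold kept their direction under each of the 6 alternatives, and 13 stayed past 1.3-fold with the pseudocount of 0.1, 12 with centring, 8 with the GC trend removed and 0 against either mean of DMSO libraries. Without the time point as a replicate block, limma also called 0 members between treatments, and no other call changed. Depth per gene is unknown, and pairs at 1 time have no replicate check.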
